A study of Bos taurus with 6 samples.

Results

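The activin, inhibin and follistatin axis was followed in bovine cumulus cells through 10 genes, which are INHA, INHBA, INHBB, FST, ACVR1, ACVR1B, ACVR2A, ACVR2B, SMAD2 and SMAD3. They were chosen by name, as the probes whose platform annotation carries one of these symbols, and the rule uses no measured value, although the genes were picked with earlier results of these data known. This gave 10 of 15216 annotated genes and 14 of 43794 probes. RNA of cumulus cells after 6 h of in vitro maturation was compared with RNA of cells taken before maturation (0 h, the reference) on arrays that read Cy3 and Cy5 together. The cells came from complexes of slaughterhouse ovaries of Holstein cows, in 3 biological replicates that were each hybridised on 2 arrays with the dyes exchanged, so that 6 arrays gave n = 3. Complexes had 5 or more layers of cumulus, and no more than 10 were matured together. Culture was in TCM-199 that held 0.33 mM pyruvate, 1 µg/ml estradiol, 50 µg/ml gentamicin and 10% serum, under 20% O2 and 5% CO2 at 38.5 °C. The labels list no gonadotropin in it. Not given in the sources used here are the numbers of animals per replicate, so the p-values cover only the spread among the 3 replicates.

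Activins are dimers of inhibin beta chains, and inhibins pair the same beta chains with the inhibin alpha chain. An activin binds a type II receptor, which then activates a type I receptor, which phosphorylates SMAD2 and SMAD3. Follistatin binds activin outside the cell and keeps it from its receptors. Inhibin holds type II receptors in a complex that does not signal. In the ovary, granulosa and cumulus cells are the main source of these proteins, which are known for setting the response of the follicle to follicle-stimulating hormone.

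All 10 genes had a probe that exceeded background on every array of at least 1 time point and were tested, as were 11 of their 14 probes. A reading was above background where the spot mean exceeded the mean + 2 SD of the negative controls in its channel. Values below are log2 ratios of 6 h over 0 h after loess normalization, and levels are log2 intensities of 1 probe, which are not compared between genes. Each gene is represented by its brightest tested probe. The word called marks an adjusted p under 0.05 by limma over all 9217 genes tested.

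The labelled cell type was checked on marker lists. Of all genes tested, 17.4% rose and 18.2% fell, and the counts below stand beside these shares. Of 12 cumulus and granulosa markers, 11 were tested, and 5 of these fell (NR5A2, FSHR, AMHR2, CYP19A1 and GATM) and 0 rose. Of 13 oocyte markers with a probe, 3 were above background on all arrays at 0 h and 8 at 6 h, 8 were tested and none was called, although the list median was 2.04, 0.88 and -1.19 in replicates 1, 2 and 3. Of 10 theca and stroma markers, 7 were tested and 4 rose (PDGFRA, LUM, DCN and TCF21), with medians of 0.76, 0.69 and 1.06. ACTA2, NR2F2 and COL1A1 were tested and not called. CYP17A1 and INSL3, which define theca, did not pass the filter, which does not show that they were absent. CYP17A1 was above background on 3 of the 0 h and 5 of the 6 h readings, and INSL3 on 5 and 4. DCN passed the filter only through its 6 h readings, and AMHR2 only through its 0 h readings. Of the oocyte markers, the probes used for GDF9, ZP2, ZP3, ZP4, ZAR1 and KPNA7 also passed only through their 6 h readings. The oocyte list medians are therefore partly set by the filter and are no independent support for higher values at 6 h. Of 10 markers of blood and endothelium, 3 were tested, CD68 rose, and PECAM1 was not above background on any array. The part of these other cells in the results below was not tested. Per array and time point, 41.3% to 84.3% of probes exceeded background.

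Within the axis, the transcripts of FST and SMAD2 fell and those of the type I receptors ACVR1B and ACVR1 rose. SMAD2 fell 3.21-fold and FST 2.53-fold, and ACVR1B and ACVR1 rose 2.28-fold and 2.20-fold. The transcripts of the chains themselves, of the type II receptors and of SMAD3 did not pass the test. The 4 called genes are 40% of the 10 members, and 35.6% of all genes tested were called, so the share is near the background. By direction, 2 members rose and 2 fell, where 17.4% of all genes tested rose and 18.2% fell. At the level of probes, 4 of the 11 tested were called, against 33.4% of all probes tested. In bulk RNA of this kind, fewer cells of a type and less RNA per cell cannot be told apart. Each of the 4 calls held in all 16 alternative settings of processing and sample choice.

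**Figure D1:**
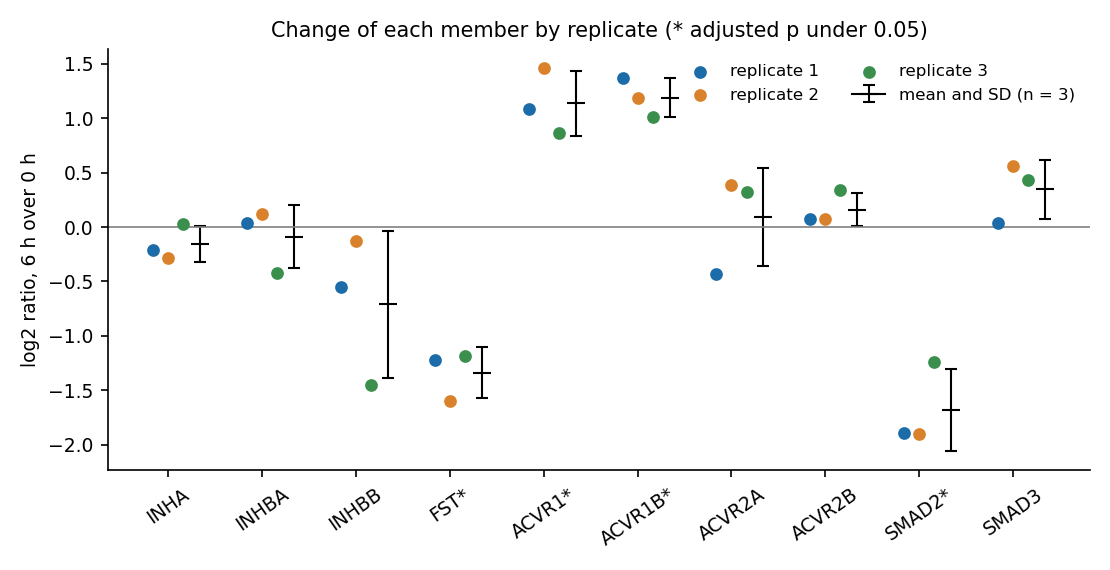
Log2 ratio of 6 h over 0 h for each of the 10 genes, with a point for each replicate (both arrays of a dye swap averaged) and the mean and SD (n = 3). FST and SMAD2 lie below 0 and ACVR1 and ACVR1B above 0 in all 3 replicates, while the INHBB points spread from -0.13 to -1.45.

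FST (probe EMBV3_10434), which encodes follistatin, was at 14.87, 14.70 and 14.82 at 0 h in replicates 1, 2 and 3. At 6 h it was at 13.64, 13.09 and 13.63. All 6 h levels lay below all 0 h levels, and 42.9% of all genes tested likewise had levels that did not overlap. The log2 ratios were -1.22, -1.60 and -1.19, with a mean of -1.34 ± 0.23 (SD, n = 3, limma adjusted p = 0.0023) and lower values on 6 of 6 arrays. The 95% interval of the mean was -1.67 to -1.01. Of all genes tested, 2.56% had a lower ratio.

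SMAD2 (probe EMBV3_15068), which carries the activin signal to the nucleus, gave the largest change of the 10 genes. Its levels were 13.73, 13.44 and 13.46 at 0 h and 11.84, 11.53 and 12.21 at 6 h. They again did not overlap, as for 42.9% of all genes tested. The ratios were -1.89, -1.90 and -1.24, with a mean of -1.68 ± 0.38 (SD, n = 3, limma adjusted p = 0.0024). Both dye orientations gave a like value, at -1.65 with 6 h RNA in Cy3 and -1.72 with it in Cy5. Of all genes tested, 1.11% had a lower ratio. A further SMAD2 probe (EMBV3_15506) exceeded background on 4 of the 0 h and 3 of the 6 h readings, and its untested ratio was -0.32 ± 0.39. The SMAD2 result thus rests on a single probe.

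SMAD3 (probe EMBV3_36827), the partner of SMAD2 in this pathway, had a positive mean ratio but was not called. Its levels were 7.72, 7.44 and 7.50 at 0 h and 7.76, 8.0 and 7.94 at 6 h. The levels of the time points did not overlap, as for 42.9% of all genes tested. The ratios were 0.04, 0.56 and 0.44, with a mean of 0.35 ± 0.27 (SD, n = 3, limma adjusted p = 0.114), with a 95% interval of -0.01 to 0.70. It was called without replicate 1 (0.50, adjusted p = 0.0267), on the 3 arrays with Cy5-labelled 6 h RNA (0.49, adjusted p = 0.0482) and with only Cy3 readings (0.40, adjusted p = 0.0495).

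**Figure D2:**
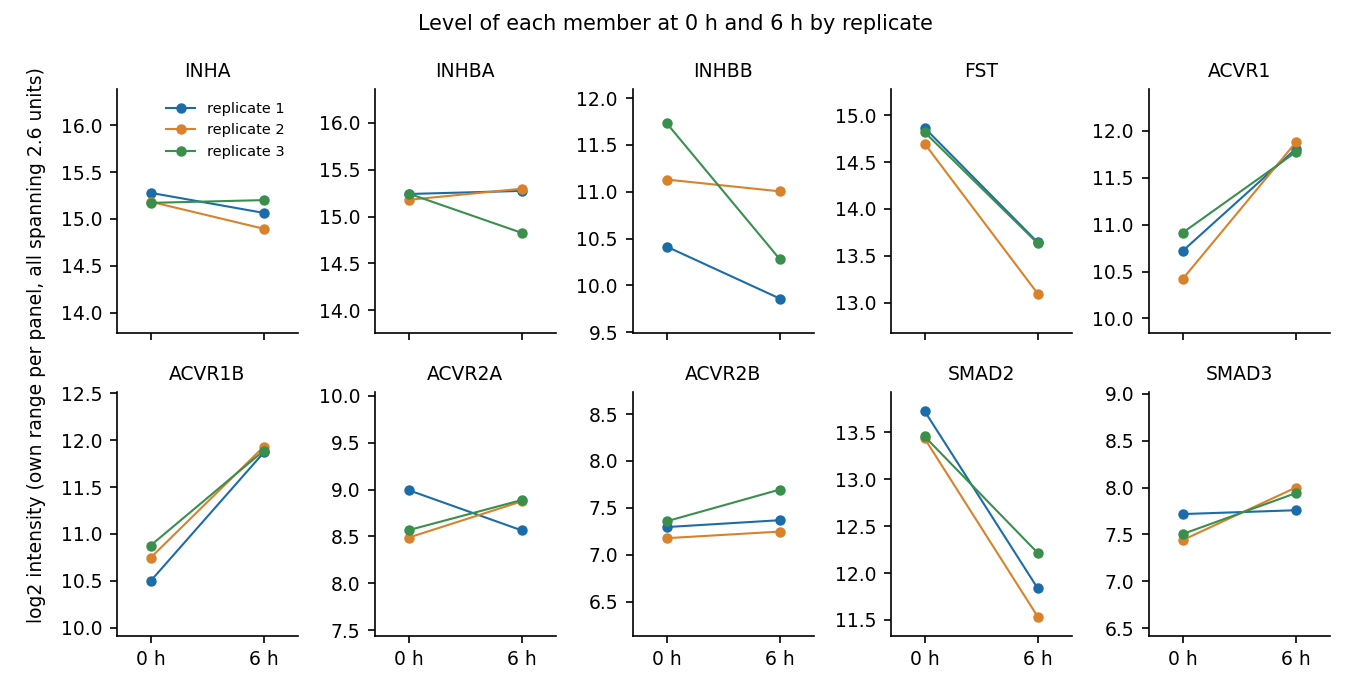
Level of each gene at 0 h and 6 h as log2 intensity of its brightest tested probe, with a line for each replicate and panels that span the same number of units. The lines of FST and SMAD2 fall and those of ACVR1 and ACVR1B rise in all 3 replicates, and the INHBB levels differ between replicates already at 0 h, from 10.42 to 11.73.

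ACVR1B (probe EMBV3_05445), the type I receptor through which activin activates SMAD2 and SMAD3, was at 10.50, 10.75 and 10.88 at 0 h. At 6 h it was at 11.87, 11.93 and 11.89, so every 6 h level lay above every 0 h level. Of all genes tested, 42.9% had levels that did not overlap. Its ratios were 1.37, 1.19 and 1.01, with a mean of 1.19 ± 0.18 (SD, n = 3, limma adjusted p = 0.0025) and higher values on 6 of 6 arrays. ACVR1 (probe EMBV3_10301) is a type I receptor that mostly serves bone morphogenetic proteins. It was at 10.72, 10.42 and 10.91 at 0 h and at 11.81, 11.88 and 11.77 at 6 h. Its ratios were 1.09, 1.46 and 0.86, with a mean of 1.14 ± 0.30 (SD, n = 3, limma adjusted p = 0.0044) and higher values on 6 of 6 arrays. Of all genes tested, 4.62% had a higher ratio than ACVR1B and 5.07% a higher ratio than ACVR1. The other ACVR1 probe (EMBV3_15965) exceeded background on 3 of the 0 h and 4 of the 6 h readings, and its untested ratio was -0.13 ± 0.19, so this result too comes from 1 probe. FST and ACVR1B likewise had only 1 annotated probe each.

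The type II receptors, which bind activin first, gave small ratios that did not pass the test. ACVR2A (probe EMBV3_41410) was at 8.99, 8.49 and 8.57 at 0 h and at 8.56, 8.87 and 8.89 at 6 h. Its ratios were -0.43, 0.39 and 0.32, so the replicates went in opposite directions and the levels overlapped. The mean was 0.09 ± 0.45 (SD, n = 3, limma adjusted p = 0.75), and its 95% interval of -0.38 to 0.57 leaves room for changes in either direction. Further ACVR2A probes gave -0.06 ± 0.09 (EMBV3_21533, adjusted p = 0.72 in the fit over all probes) and -0.19 ± 0.26 (EMBV3_25184, untested). ACVR2B (probe EMBV3_42472) was at 7.29, 7.18 and 7.36 at 0 h and at 7.37, 7.25 and 7.70 at 6 h. Its ratio was 0.16 ± 0.15 (SD, n = 3, limma adjusted p = 0.345), with a 95% interval of -0.13 to 0.45, and the probe exceeded background on 6 of the 0 h and 5 of the 6 h readings.

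The chains of activin and inhibin fall into a measurable gene and a pair of genes at the scanner's ceiling. INHBB (probe EMBV3_39963), the beta B chain, was at 10.42, 11.13 and 11.73 at 0 h and at 9.86, 11.00 and 10.28 at 6 h. Its ratios were -0.55, -0.13 and -1.45, and the levels overlapped, with 0 h alone running from 10.42 to 11.73. The mean was -0.71 ± 0.68 (SD, n = 3, limma adjusted p = 0.087), with lower values on 5 of 6 arrays. The ratio was -0.40 on arrays with 6 h RNA in Cy3 and -1.02 on those with it in Cy5, where it was called (adjusted p = 0.043). With 6 arrays, a dye term and the replicate as a random block it was called at -0.71 (adjusted p = 0.025), and with any 1 replicate left out it ranged from -1.0 to -0.34 and was not called. Replicate 3, which had the lowest INHBB ratio, was also the replicate in which the oocyte marker median lay below 0, and the part of that difference in the result was not tested.

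INHA (probe EMBV3_19489), the inhibin alpha chain, and INHBA (probe EMBV3_39728), the beta A chain, gave spots close to the top of the scanner range of 65535. For INHA the median pixel at 0 h lay between 59467 and 65535 on the 6 arrays, and spots on 2 arrays were saturated. At 6 h it was 29065, 28884 and 39711 where 6 h RNA was in Cy3, and 60938, 58223 and 61844 where it was in Cy5. The 6 h Cy3 pixels were thus below all 0 h pixels, whereas the 6 h Cy5 pixels overlapped them. After normalization the INHA ratios were -0.21, -0.29 and 0.03, with a mean of -0.16 ± 0.17 (SD, n = 3, limma adjusted p = 0.36). Arrays with 6 h RNA in Cy3 gave -0.35 and those with it in Cy5 gave 0.03. Cy3 readings alone, taken from both arrays of a swap, gave -0.29, -0.64 and -0.01 (adjusted p = 0.20), and Cy5 readings alone gave -0.14, 0.06 and 0.07 (adjusted p = 0.991).

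INHBA spots were saturated on 4 of 6 arrays, and the median pixel at 0 h lay between 54541 and 65535. At 6 h it lay in the same range on 5 arrays and at 28686 on the replicate 3 array with 6 h RNA in Cy3. The INHBA ratios were 0.03, 0.12 and -0.42, with a mean of -0.09 ± 0.29 (SD, n = 3, limma adjusted p = 0.69). The low value of replicate 3 came from 1 array, at -0.85, against 0.01 on its dye swap. Without replicate 3 the ratio was 0.08 and with saturated spots left out it was 0.13 over 2 replicates, neither of them called. The latter setting kept 1 array of the swap in each of these replicates. Near the ceiling a spot cannot show the full size of a difference, so the ratios of INHA and INHBA may be compressed.

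**Figure D3:**
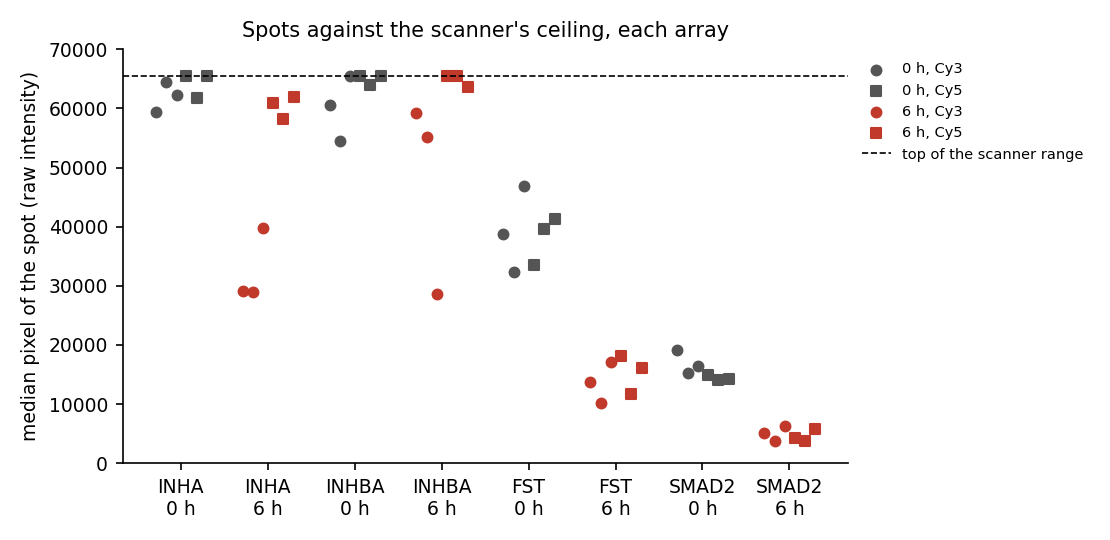
Median pixel of the spot (raw intensity) for INHA, INHBA, FST and SMAD2 at 0 h and 6 h, with a point for each array, circles for Cy3 and squares for Cy5, and the top of the scanner range as a dashed line. INHA and INHBA at 0 h sit between 54541 and 65535, while FST, from 10104 to 46954, and SMAD2, from 3695 to 19105, stay below the ceiling at both times.

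The change of FST was set against those of the chains within the same replicates. FST minus INHBB, both below the ceiling, was -0.67, -1.48 and 0.27, with a mean of -0.63 ± 0.87 (SD, n = 3). The replicates differed in sign, and the exact sign-flip permutation p was 0.5 (two-sided, 0.5 after Benjamini-Hochberg adjustment over 3 comparisons). For INHA and INHBA such a difference largely restates the FST value, because their mean ratios lay near 0. Those ratios may be compressed by the ceiling, and its part in them was not tested. FST minus INHA averaged -1.18, or -1.29 with saturated spots left out. That setting kept only the array with 6 h RNA in Cy5 for INHA in replicates 1 and 3, so the dyes were not balanced. FST minus INHBA averaged -1.25, or -1.55 over the 2 replicates that kept unsaturated spots, each with only 1 array for INHBA. Neither value shows how FST moved relative to these chains. The exact p was 0.25 for both over 3 replicates (0.375 adjusted), the smallest that this permutation test can give.

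**Figure D4:**
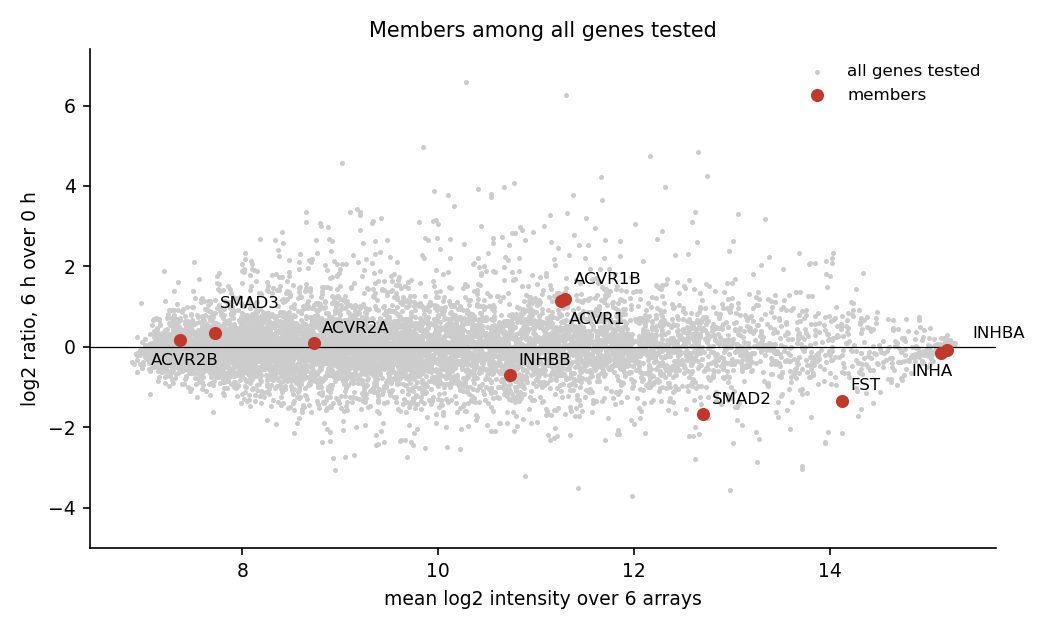
Log2 ratio of 6 h over 0 h against mean log2 intensity over 6 arrays for all 9217 genes tested (grey) and the 10 genes of the axis (red). SMAD2 (-1.68) and FST (-1.34) lie below most genes and ACVR1B (1.19) and ACVR1 (1.14) above most genes, and INHA and INHBA lie at the right end of the intensity range.

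The genes with the nearest pattern to the 4 called members were found by Euclidean distance over the ratios of the 6 arrays, among 9176 genes. Nearest to FST were BNIP3L (distance 0.24), GMNN (0.29) and PPP1R15A (0.30). SMAD2 was nearest to SLC41A2 (0.22), CLK4 (0.22) and RRAGD (0.38). For ACVR1B they were GAR1 (0.34), LTV1 (0.34) and MAP2K3 (0.38), and for ACVR1 they were SLC39A10 (0.29), MED15 (0.51) and OTUD5 (0.52).

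Among proteins that bind these ligands and among the other receptors of the family, FSTL3 went opposite to FST. FSTL3 (probe EMBV3_43421), a follistatin-like protein that also binds and blocks activin, rose 9.93-fold. Its ratios were 3.59, 2.80 and 3.55, with a mean of 3.31 ± 0.44 (SD, n = 3, limma adjusted p = 0.00082), higher on 6 of 6 arrays. TGFBR3, or betaglycan, the co-receptor that lets inhibin hold type II receptors, fell 2.58-fold (-1.82, -1.61 and -0.68, mean -1.37 ± 0.61, adjusted p = 0.00996). Without replicate 2 it was not called (-1.25, adjusted p = 0.064), and its other probes gave -0.69 (tested) and 0.07 (untested). BAMBI, a receptor decoy without a kinase that dampens activin signals, rose 4.53-fold (1.73, 1.36 and 3.44). Its other probes gave 2.16 (tested) and 0.40 (untested).

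Of 21 genes of this list with a probe, 15 were tested, 7 rose and 1 fell, with a median of 0.17 against -0.02 over all genes tested. The share called was 53.3%, against 35.6% over all genes tested. The pathway lists were chosen with earlier results of these data known, and their shares were not tested. LTBP1, which holds latent TGF-beta in the matrix, rose by 2.08 ± 0.23. The type II receptor TGFBR2 rose by 1.80 ± 0.21, although its dim, untested further probes gave 0.10. FSTL1, a secreted glycoprotein, rose by 0.77 ± 0.17, with 0.33 and 0.95 at its other tested probes. FKBP1A, which binds type I receptors and keeps them inactive, rose by 0.98 ± 0.35. Its other probes gave 0.11 (tested) and 0.09 (untested). DCN, a matrix proteoglycan that also stands in the theca and stroma list, rose by 0.68 ± 0.15 but was at 0.17 on arrays with 6 h RNA in Cy3 (adjusted p = 0.47). It was above background on 2 of the 0 h and 6 of the 6 h readings. DCN thus passed the filter only through its 6 h readings, and its p is no independent support. Without replicate 2 neither FKBP1A (adjusted p = 0.0587) nor DCN (adjusted p = 0.0659) was called, and the list kept 5 calls. ACVR1C, a further type I receptor for activins, had -0.05 ± 0.03 (adjusted p = 0.75). TGFBR1 was not above background on any array.

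**Figure D5:**
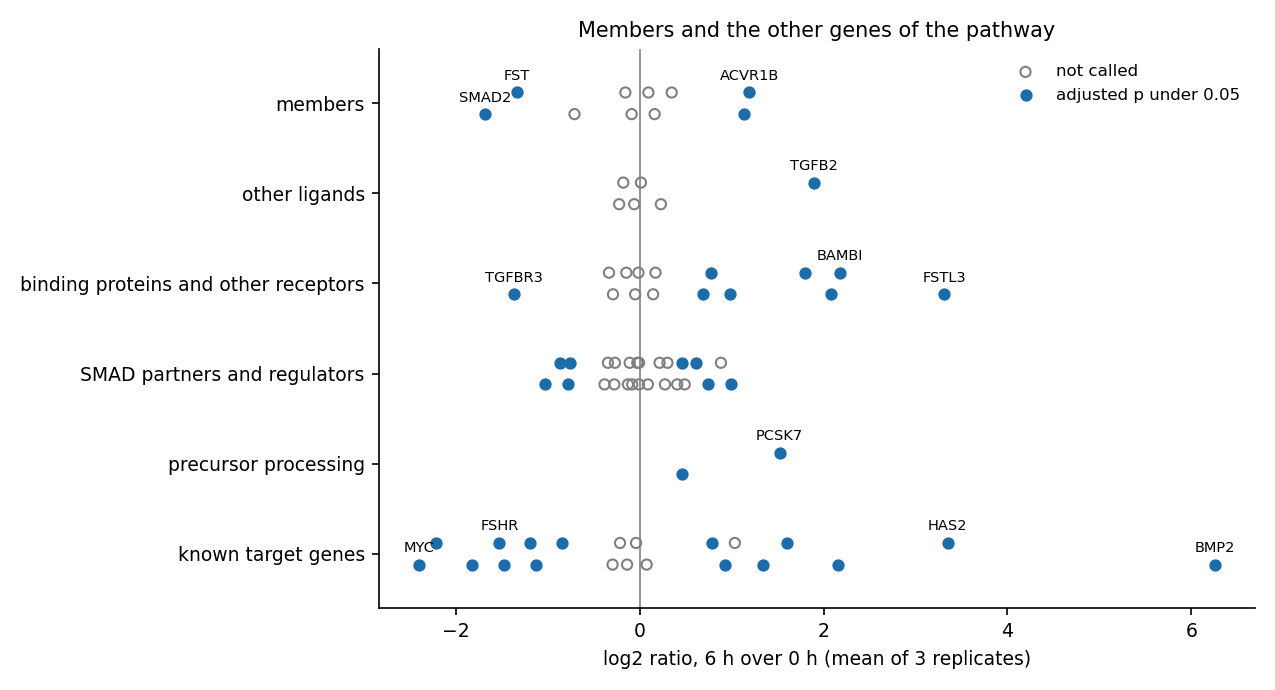
Log2 ratio of 6 h over 0 h (mean of 3 replicates) for the 10 genes of the axis and for the tested genes of 5 pathway lists, with filled points for genes with an adjusted p under 0.05. FSTL3 at 3.31 and FST at -1.34 lie on opposite sides of 0, and the known target genes spread from -2.40 (MYC) to 6.26 (BMP2).

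Of 12 other ligands with a probe, 6 were tested and 1 was called, a share of 16.7% against 35.6% over all genes tested. TGFB2, a TGF-beta ligand, was not above background at 0 h on any array and was above it on 6 arrays at 6 h, which gave a ratio of at least 3.43-fold (limma adjusted p = 0.0030). It passed the filter only through its 6 h readings, so it had to differ and its p is no independent support. Its measured mean levels were 6.25 and 8.15. For this bound and the next of its kind, the mean 6 h level was set against the higher of the probe's own 0 h signal and the lowest signal above background on that array. The oocyte factor GDF9 had ratios of 1.28, 0.51 and -1.11 in replicates 1, 2 and 3, the same order of replicates as in the oocyte marker medians. GDF9 is itself a tested gene of that marker list, so this likeness is partly built in. It was above background on 2 of the 0 h and 6 of the 6 h readings, and so passed the filter only through its 6 h readings. The other inhibin beta chain genes INHBC and INHBE were not above background on any array. The precursors of these ligands are cut by proprotein convertases, of which PCSK7 rose 2.87-fold (1.52 ± 0.13, adjusted p = 0.0015), with 0.09 at a dim further probe. BMP1, a protease that frees ligands from their binding proteins, rose by 0.46 ± 0.09, but was not called without replicate 2 (adjusted p = 0.121), without replicate 3 (adjusted p = 0.0811) or on arrays with 6 h RNA in Cy5 (0.27, adjusted p = 0.219). FURIN, PCSK5 and PCSK6 did not pass the filter.

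Genes that work with or against SMAD2 and SMAD3 were called no more often than genes at large. Of 25 tested, 4 rose and 4 fell, a share of 32.0% against 35.6% over all genes, with a median of -0.01. The corepressors TGIF2 and TGIF1, which sit on SMAD2 and SMAD3 at their targets, fell by 1.03 and 0.76 on the log2 scale, with SDs of 0.25 and 0.44 (n = 3). The adaptor DAB2, which links receptors to SMADs, had -0.78 ± 0.18 and -0.45 at its other tested probe. The ubiquitin ligase WWP2 had -0.87 ± 0.26 and -0.25 at its other tested probe. RANBP3, which exports SMAD2 and SMAD3 from the nucleus, rose by 0.75 ± 0.03, with 0.66 at its other tested probe. NEDD4L, a ligase for active SMAD2 and SMAD3, rose by 0.99 ± 0.53, the corepressor SKI by 0.61 ± 0.27, and PPM1A, a SMAD phosphatase, by 0.45 ± 0.18. The other tested SKI probes gave 0.87 and 0.18. NEDD4L was above background on 4 of the 0 h readings and DAB2 on 4 of the 6 h readings. Each passed the filter only through the time point where it was higher, so their p is no independent support. SMAD4, the common partner of all these SMADs, had 0.21 ± 0.34 (adjusted p = 0.36) and its further probes -0.18 and -0.62. Without replicate 2 this list held 2 calls, RANBP3 and TGIF2. The lost calls had adjusted p of 0.126 for TGIF1, 0.0576 for DAB2, 0.0507 for WWP2, 0.0569 for NEDD4L, 0.0798 for SKI and 0.203 for PPM1A. Without replicate 3, SKI (adjusted p = 0.0502) and PPM1A (adjusted p = 0.0692) were not called.

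Genes known as targets of activin, TGF-beta or these SMADs in various cell types changed in both directions. Of 27 with a probe, 21 were tested, 7 rose and 8 fell, a share of 71.4% against 35.6% over all genes, with a median of -0.14. This list too was chosen with earlier results of these data known, so its share is no independent support. Of the cumulus and granulosa markers that fell, 4 stand in this list too. They include FSHR, the receptor of follicle-stimulating hormone, at -1.42, -1.86 and -1.30 and the aromatase CYP19A1 at -1.19, -1.27 and -1.99. Smaller ratios came from the other CYP19A1 probes, at -0.60 (tested) and -0.14 (untested). The nuclear receptor NR5A2 fell by 1.83 on the log2 scale, with -1.67 and 0.03 at its other tested probes. AMHR2, the receptor of anti-Müllerian hormone, fell by 0.85, with 2 of its 6 h readings above background. AMHR2 thus passed the filter only through its 0 h readings, and its p is no independent support. Also lower were the growth regulator MYC (-2.40 ± 1.12) and the stress sensor GADD45B (-2.22 ± 0.35). PMEPA1, a feedback inhibitor that is a common readout of SMAD2 and SMAD3, rose by 0.93 ± 0.41 (adjusted p = 0.0129), higher on 6 of 6 arrays. The cell cycle inhibitor CDKN2B rose by 1.34 ± 0.66, with 0.36 at its other probe, and was not called once replicate 2 was left out (adjusted p = 0.072). BMP2 (6.26 ± 0.18), the hyaluronan synthase HAS2 (3.35 ± 0.49) and the matrix protein PTX3 (2.16 ± 0.72) rose as well. SNAI2, a transcription factor of cell migration, was not above background at 0 h on any array and was at least 2.93-fold higher at 6 h (limma adjusted p = 0.0089), with measured mean levels of 6.54 and 8.15. Like TGFB2 it passed the filter only through its 6 h readings, and it is 1 of the 7 target genes counted as higher.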

How the data were processed

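Per the file headers, the authors deposited raw spot intensity, the background around each spot and a flag on spots to ignore, and a matrix of log2 ratios, Cy5 over Cy3 by comparison with the scanner values. Its normalization was not given in the sources used here. RNA was amplified linearly and labelled chemically, per the labels' protocols, and the dyes were exchanged within each replicate. The same log2 values fill the series' deposited value table.

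Here spot means (532 nm for Cy3, 635 nm for Cy5) were corrected with normexp (offset 50, median local background, ignored spots left out), normalized by loess within each array and turned to 6 h over 0 h, and the 2 arrays of a swap were averaged (n = 3). Levels were set by Aquantile. Probes above background on all 6 arrays at either time were tested (20831 probes, 9217 genes by brightest probe) with limma 3.58.1 in R 4.3.3 and Benjamini-Hochberg adjustment. A spot was above background over the mean + 2 SD of 153 negative controls, and saturated at a median pixel of 65535. Symbols outdated in the platform annotation were updated through the RefSeq table for ARS-UCD2.0 (982 of 15229 symbols). Every array holds both time points of 1 replicate, which pairs them.

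In values simulated for 6 h over 0 h on 9217 genes, 2.99% of 67 genes changed 1.5-fold, 37.3% of 67 changed 2-fold and 89.4% of 66 changed 4-fold were called. Only these genes changed in the simulation, whereas 3282 genes were called in the data. Noise between the arrays of a swap was also added to the spread among replicates, which already holds part of it. These shares are therefore not the detection rates of the fit to the data. The number of arrays limits the precision. The members and lists were chosen with earlier results of these data known. Named are all members with every probe and, of each list, called genes up to 12 by smallest p.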

Additional observations from a re-analysis of the deposited data

Results flagged for a closer look

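Over the 6 arrays of a gene, 2 values stood far from the others by Dixon's criterion, which by chance marks about 1 in 20 groups. Arrays of a dye swap share their RNA, so these 6 values are not independent. INHBA had -0.85 on the replicate 3 array with 6 h RNA in Cy3, against -0.05 to 0.15 on the other arrays. FST had -1.81 on the replicate 2 array with 6 h RNA in Cy3, against -1.39 to -1.14 elsewhere.

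Of the 3 member probes that were not tested, each had some of its 12 readings above background. These were 7 readings of ACVR1 (EMBV3_15965), 9 of ACVR2A (EMBV3_25184) and 7 of SMAD2 (EMBV3_15506).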

How the results depend on the processing

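The calls and directions of FST (log2 ratio -1.45 to -1.21), SMAD2 (-1.90 to -1.57), ACVR1B (1.06 to 1.32) and ACVR1 (0.93 to 1.35) held in all 16 alternatives, and their adjusted p was at most 0.0299. The alternatives with only Cy3 or only Cy5 readings were chosen after seeing the data. INHBB was called on arrays with 6 h RNA in Cy5 (-1.02) and with a dye term and random replicate (-0.71), and ranged from -1.0 to -0.34 without 1 replicate. SMAD3 was called on arrays with 6 h RNA in Cy5 (0.49), with only Cy3 readings (0.40) and without replicate 1 (0.50), and ranged from 0.24 to 0.50 without 1 replicate. Members that were not called changed sign in some settings. INHA was at 0.03 on arrays with 6 h RNA in Cy5. INHBA was at 0.07 on those arrays, at 0.13 with saturated spots left out and at 0.05 with only Cy5 readings, and at -0.19 to 0.08 without 1 replicate. ACVR2A was at -0.05 to 0.35 without 1 replicate, with -0.05 without replicate 2 and -0.02 without replicate 3. Without replicate 2 the number of called genes dropped from 3282 to 1346 (leave-one-out range 1346 to 3367).

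List counts without 1 replicate ranged from 5 to 8 for binding proteins and receptors, from 2 to 11 for SMAD partners, from 1 to 2 for other ligands and from 1 to 2 for precursor processing. Other ligands gave 0 calls where all 12 readings had to be above background (1 gene tested) and 2 calls in either dye orientation alone. Precursor processing gave 1 call on arrays with 6 h RNA in Cy5 and 1 with only Cy3 readings. Of 34 called pathway genes, 14 lost the call without replicate 2, 3 without replicate 3 and 0 without replicate 1, and 0 changed sign in 538 alternatives. Except where a setting leaves samples out, the cause was not tested. Signals near the scanner's ceiling limit INHA and INHBA, and those near background limit ACVR2B and SMAD3.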
